A study of Danio rerio with 2 samples.

Results

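The zebrafish embryo first translates the mRNAs that its mother placed in the egg. Its own genome is then switched on during the blastula stages, and over gastrulation maternal mRNAs are cleared while zygotic ones take their place. Ribosome profiling reads this handover at the level of translation, since nuclease treatment leaves the stretches of mRNA that lie inside ribosomes, and these footprints are sequenced. The transcripts described here are those with a high mean level over both stages that held a far larger share of all ribosome footprints at the end of gastrulation than before it.

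Wild-type embryos of the TLAB strain were sampled at sphere, a blastula stage at 4 hours post-fertilization (hpf), and at bud, a gastrula stage at 10 hpf. Each stage was represented by 1 library from 200 pooled whole embryos, and both lysates contained tigecycline (100 µg/ml) and cycloheximide (100 µg/ml) to arrest ribosomes during lysis. Footprint abundance was given in TPM (scaled so that a library sums to 1000000), the length-corrected share of all footprints that falls on a transcript. With 1 library per stage no difference between stages had a replicate check, so all differences below are descriptions of these libraries and no p-value was computed.

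The risen transcripts were chosen by a mean of both libraries of at least 100 and below 1000 TPM and by log2((bud + 1)/(sphere + 1)) of at least 2, a 4-fold difference. They numbered 268 of the 24573 principal coding transcripts in the table. Of the 1196 transcripts in this abundance band, 22.4% passed the rule. Of the 13561 transcripts whose mean reached 1 TPM, 20.6% had the same 4-fold rise or more. In the opposite direction, 169 transcripts of the band (14.1%) were at least 4-fold lower. Because the same values chose the transcripts, their rise is not itself a finding, and its size, the starting level and the share of the pool are given as measurements. Whole embryos were lysed, so more cells of a type and more footprints per cell cannot be told apart. Footprint TPM alone also cannot tell more mRNA from more ribosomes per mRNA, and as shares they hold no change in total translation.

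**Figure D1:**
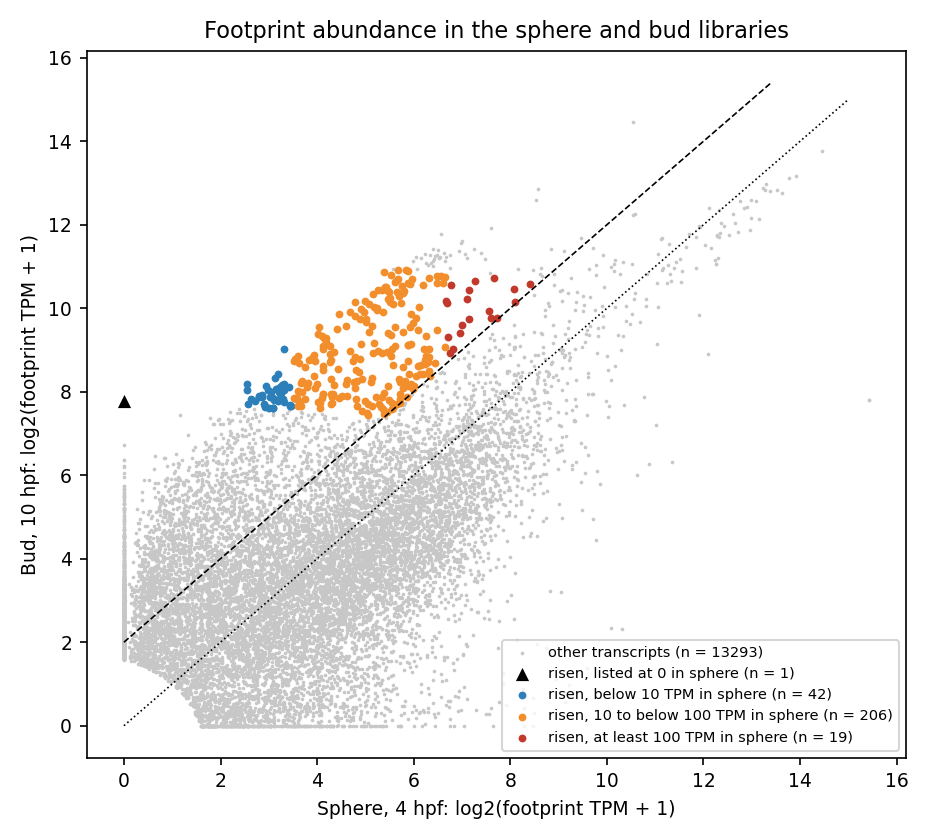
Each point is a transcript whose mean reached 1 TPM, placed by log2(footprint TPM + 1) in the sphere library (horizontal) and the bud library (vertical); the dotted line marks equal values and the dashed line a 4-fold rise. The 268 risen transcripts are coloured by their sphere level, and the triangle is the only one listed at 0 in sphere.

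The rise was usually much larger than the threshold. The median was 4.16 on the log2 scale (lower quartile 3.05, upper quartile 4.80, range 2.01 to 7.78), which is 17.9-fold on the TPM + 1 scale. A rise of 4-fold to below 8-fold was seen for 64 transcripts, and one of 8-fold to below 16-fold for 61. The most common size was 16-fold to below 32-fold, with 98 transcripts, and 45 rose by 32-fold or more. The log2 ratios did not thin out steadily above the threshold. In bins of 0.5, counts dropped to 23 transcripts between 2.5 and 3, climbed to 63 between 4.5 and 5, and then fell to 3 between 5.5 and 6, with a single transcript beyond. A sphere level of 2% to below 4% of bud, the lower edge described below, goes with log2 ratios from this peak to the fall. It was found for 98 transcripts. With 2.69% of the bud level taken off each sphere level, the median rise was 5.11 instead of 4.16. That percentage came in part from the risen transcripts themselves, so the larger rise is no independent check. Whether the peak and the fall after it reflect this edge was not tested. The median of the whole abundance band was -0.17.

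**Figure D2:**
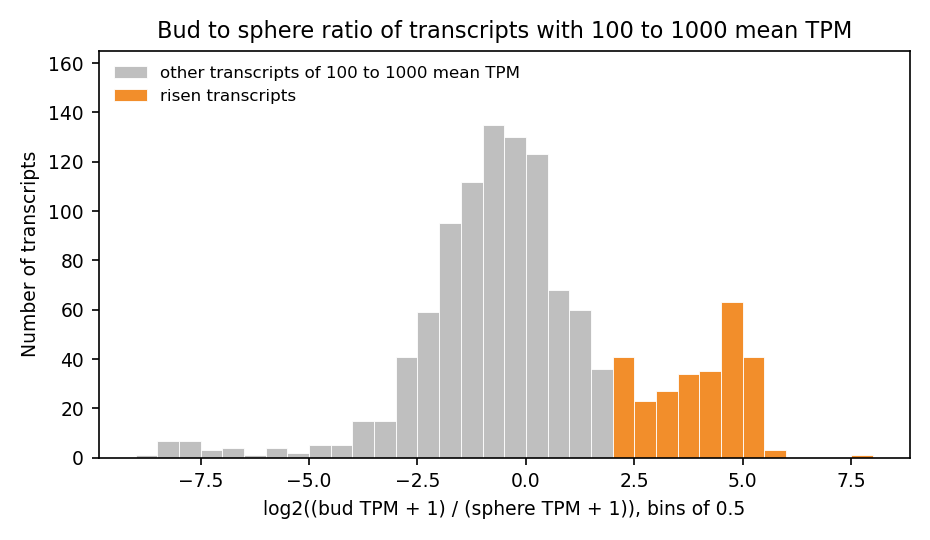
The horizontal axis is the log2 ratio of bud to sphere TPM, each plus 1, in bins of 0.5, and the vertical axis counts transcripts of the band from 100 to 1000 mean TPM. Grey bars are the other transcripts of this band and orange bars the 268 risen ones, whose counts peak at 63 transcripts between 4.5 and 5. Ratios from this peak upward mostly go with sphere levels near the lower edge described in the text.

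The values at the borders of the rule show how sharp it was. The smallest rise that passed was that of a transcript with 57.3 and 233 TPM in sphere and bud, whereas a transcript with 72.0 and 290 TPM fell just short at 1.995 on the log2 scale. There were 18 transcripts with a rise between 2 and 2.2 and 17 of the band between 1.8 and 2, so this border ran through a continuous range. At the lower border of abundance, 7.07 and 195 TPM passed with a mean of 101, and a transcript at 37.1 and 163 TPM missed with a mean of 99.9. At the upper border, a transcript at 56.3 and 1933 TPM passed, and one at 46.5 and 1958 TPM did not.

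Strong rises also occurred above that ceiling. Among the 143 transcripts whose mean reached 1000 TPM, 47 (32.9%) rose by 4-fold or more, with a median of 4.58 on the log2 scale. Among transcripts of 10 to 100 mean TPM, 1221 (19.5%) were, with a median of 3.48. The median of 4.16 for the risen transcripts lay between these, although adding 1 TPM lowers the ratio of low transcripts more than that of high ones.

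Nearly all risen transcripts had a sphere value above 0. Only 1 was listed at 0, which was also the only one among all 654 transcripts with at least 200 TPM in bud. A value above 0 does not by itself show translation at sphere, since 98 risen transcripts lay at the lower edge described below. A low level, above 0 and below 10 TPM, was found for 42 transcripts (15.7%), and 225 (84.0%) had at least 10 TPM, here called moderate. Of these, 206 had 10 to below 100 TPM and 19 had 100 TPM or more. The median sphere level was 32.6 TPM (range 0 to 337) and the median bud level was 406 TPM (range 173 to 1933). In the sphere library the risen transcripts ranked between 320 and 14751 by abundance, with a median rank of 3659, and in bud between 105 and 745, with a median of 363. Only 11 were among the 1000 most abundant of sphere, whereas all 268 were in bud, as the rule all but required.

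The rise was largest where the starting level was low, which the rule favours because it also limits the bud level. In the low class the median was 4.82 on the log2 scale, with median levels of 7.69 TPM at sphere and 237 TPM at bud. From 10 to below 100 TPM the median was 3.98, from 36.8 to 437 TPM. At 100 TPM or more it was 2.59, from 141 to 1123 TPM. Across the 268 transcripts sphere and bud levels rose together (Spearman's rho = 0.570, given as a description since the rule bounds both levels).

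The transcript listed at 0 in sphere was ENSDART00000047916, with 218 TPM in bud. It stood apart, for the next lowest sphere level among the risen transcripts was 4.81 TPM. In TPM the largest gain was that of ENSDART00000048599, from 56.3 to 1933 TPM. Neither could be given a gene name from the sources used here.

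The sphere level was next expressed as a percentage of the bud level of the same transcript. Among the 267 risen transcripts above 0 in sphere, this percentage ranged from 1.68% to 24.6%, with a median of 5.39%. The values gathered near the low end. A sphere level of 2% to below 4% of bud was found for 98 transcripts, and only 4 lay below 2%, the one at 0 included, whereas 42 lay at 4% to below 6%. The 98 transcripts spanned 195 to 1933 TPM in bud, and their sphere levels spanned 4.95 to 61.4 TPM. Of these 98, 63 had 10 TPM or more and thus counted as moderate at sphere. Transcripts with a higher bud level therefore had a higher lowest sphere level. The 53 with at least 1000 TPM in bud had no less than 26.7 TPM in sphere (median 53.1), while the lowest value above 0 for the 71 below 250 TPM in bud was 4.95 TPM (median 15.7).

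The percentage was also taken over all transcripts abundant in bud, the risen ones included. From 200 to below 1600 TPM in bud, every transcript with sphere below 4% of bud meets the rule. The low percentages there are therefore those of the risen transcripts themselves and give no separate view of the edge. Only at 1600 TPM or more did the low percentages include other transcripts. Over all 654 transcripts with at least 200 TPM in bud, 1 was listed at 0 in sphere and no other lay below 1% of its bud level. The 5th percentile was 2.69%. It was 2.90% at 200 to 400 TPM in bud, 2.696% at 400 to 800, 2.68% at 800 to 1600 and 2.84% at 1600 TPM or more, so it hardly moved with abundance. The edge was less sharp for less abundant transcripts, since 40 of the 1133 transcripts with 50 to 100 TPM in bud lay below 2%, 9 of them at 0. Set the other way round, 24 of the 596 transcripts with at least 200 TPM in sphere lay below 1% of that level in bud. An example is *ccna1*, the gene of a cyclin supplied by the mother, which went from 563 TPM to 0.486 TPM. Per the study's methods, the footprint libraries carried barcodes and were pooled during preparation. Whether some sphere footprints of the risen transcripts came from bud material was not tested, so a sphere level near this edge is a measured value and does not show that the transcript was translated at sphere. If the 5th percentile (2.69% of the bud level) is taken off each sphere value, 30 of the risen transcripts are at 0, 89 are above 0 and below 10 TPM, and 149 remain at 10 TPM or more. The percentile was taken from values that include the risen transcripts. The number at 0 therefore follows from the percentile chosen, and these counts are no check of the starting level.

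**Figure D3:**
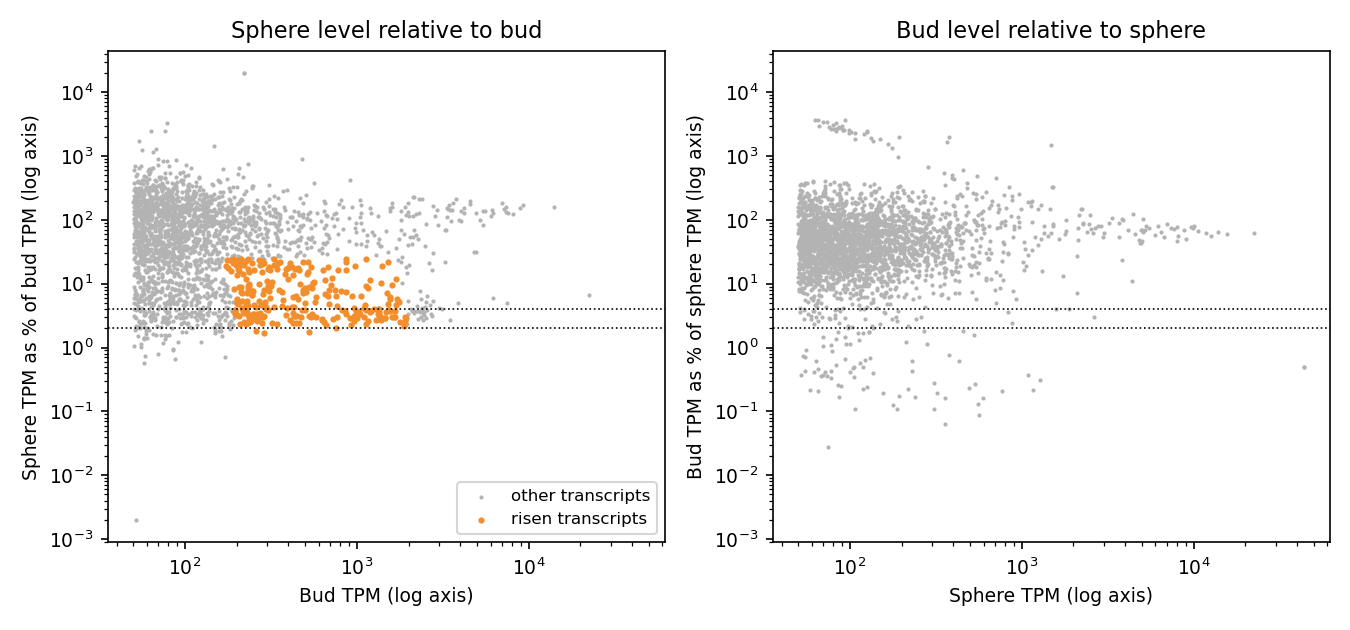
Left, the sphere level as a percentage of the bud level against bud TPM; right, the bud level as a percentage of the sphere level against sphere TPM; all axes are logarithmic, each point is a transcript with at least 50 TPM on the horizontal axis and above 0 on the other, and dotted lines mark 2% and 4%. On the left 98 of the risen transcripts (orange) lie between 2% and 4% and most others above, while grey points at 50 to 200 TPM in bud also lie below 2%; on the right points continue far below 2% at higher levels too.

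Precision at sphere was judged from the steps between low values. A single bud footprint added 0.275 times the TPM that a single sphere footprint added, so bud levels were resolved more finely. For 267 of the risen transcripts this allows the ratio of footprint numbers to be given. Bud held 14.8 to 216 times as many footprints as sphere on these transcripts, with a median of 67.5, which includes the deeper coverage of the bud library. In 233 transcripts with equal footprint numbers in both libraries, the median sphere level was 0.663 TPM, which sets an upper limit on the worth of 1 sphere footprint there. The 90th percentile of these levels was 11.8 TPM, and 55 of the risen transcripts above 0 had less than that in sphere. The number of footprints behind each value depends on the length of the transcript and cannot be read from TPM.

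Together the risen transcripts held 1.16% of the translated pool at sphere and 16.04% at bud, a 13.9-fold larger share. They are 1.09% of all transcripts, so their mean level at sphere, 43.1 TPM, was close to the mean over all entries, and at bud it was 599 TPM. By medians they stood higher at sphere, with 32.6 TPM against 0.859 TPM for all transcripts and 9.78 TPM for those whose mean reached 1 TPM. The required mean of at least 100 TPM favours this. Within their own abundance band they stood lower, since the median sphere level of the band was 174 TPM, which the required rise favours in turn. All transcripts that were higher in bud gained 46.2 percentage points of the pool between them, and the risen transcripts took 14.9 of these, or 32.2% of the gain. The 47 more abundant transcripts with a 4-fold rise went from 0.948% to 14.3% of the pool. The 169 transcripts of the same band that were at least 4-fold lower went from 6.91% to 0.808%, and the 759 that changed less than 4-fold went from 18.4% to 16.4%.

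Within the 268, 93.0% of the gain lay with transcripts whose measured starting level was moderate, which made up 84.0% of the 268 by number. This class includes 63 transcripts near the lower edge and would hold 149 instead of 225 if that edge were taken off. Those with 10 to below 100 TPM in sphere, 76.9% of the 268 by number, went from 0.811% of the pool to 12.9%, which is 81.5% of the gain. The 42 low transcripts went from 0.0318% to 1.05%, 6.81% of the gain, and the 19 with at least 100 TPM went from 0.313% to 2.04%, 11.6% of the gain. By number they were 15.7% and 7.09% of the 268. Split by size of rise, the 98 transcripts with 16-fold to below 32-fold held the largest part of the bud pool, 6.15%, followed by the 45 with 32-fold or more at 3.83%. By number these were 36.6% and 16.8% of the 268. The gain was spread over many transcripts. The 10 highest held 11.2% of the bud TPM of the group, and 58 transcripts were needed to reach 50% of it. At sphere, 55 transcripts held 50%, and the 10 highest held 18.2%.

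**Figure D4:**
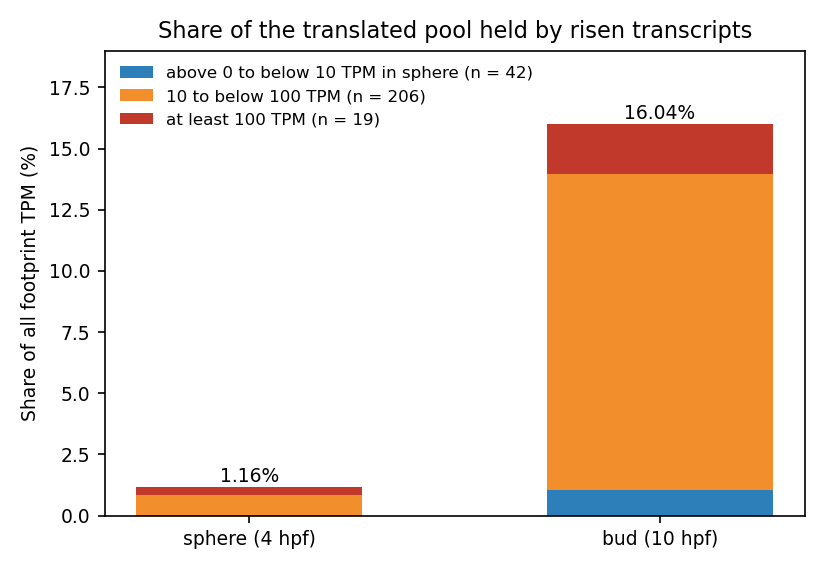
Bars show the percentage of all footprint TPM of a library that fell on the risen transcripts, stacked by their sphere level, for the single sphere and bud libraries; the transcript listed at 0 in sphere is left out. The total went from 1.16% to 16.04%, mostly through transcripts with 10 to below 100 TPM in sphere.

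Gene names could be given for 15 of the 268 transcripts. These were the ones that fell in the part of the study's tables in which transcript and gene identifiers could be paired. All 15 are described here, and nothing is said of the others' functions. They had a median rise of 4.43 on the log2 scale (range 2.43 to 5.36), with 4 in the low and 11 in the moderate class.

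Ribosomal protein genes, whose products build the ribosome itself, were among those with the largest rises. The level of *rps25*, a protein of the small subunit, was 45.5 TPM in sphere and 1781 TPM in bud, a log2 rise of 5.26. The level of *rpl24*, a protein of the large subunit, was 26.7 TPM in sphere and 1137 TPM in bud, a log2 rise of 5.36. From the list of 84 ribosomal protein genes, 4 could be named and all 4 were at least 4-fold higher in bud, with a median log2 rise of 5.10. The remaining pair, *rps6* (79.5 and 2465 TPM) and *rps3a* (86.0 and 2440 TPM), exceeded the abundance ceiling. Over all 919 named transcripts whose mean reached 1 TPM, 192 (20.9%) rose as much. A further named gene, *faub*, encodes a ribosomal protein fused to a ubiquitin-like one and was not matched to the list. It went the other way, with 191 and 68.8 TPM, a log2 difference of -1.46. The sphere levels of *rps25* and *rpl24* were 2.55% and 2.35% of their bud levels and thus lay at the lower edge. Those of *rps6* and *rps3a* also lay between 2% and 4% of bud. Of 3 named genes of ribosome biogenesis, none reached 4-fold. The nucleolar protein *npm1a* had 1080 and 2027 TPM, *ddx56*, an RNA helicase, 66.4 and 101 TPM, and *ltv1*, a factor for small subunit assembly, 43.0 and 46.4 TPM. The translation initiation factor gene *eif5b* had 21.6 and 28.4 TPM.

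The level of *fabp2*, which encodes an intracellular fatty acid binding protein, was 15.16 TPM in sphere and 663 TPM in bud, a log2 rise of 5.36. Its sphere level, 2.29% of bud, was the lowest percentage among the named transcripts. The level of *mttp*, the gene of the transfer protein that loads triglyceride onto nascent lipoproteins, was 16.5 TPM in sphere and 543 TPM in bud, with sphere at 3.04% of bud. Both counted as moderate at sphere by their TPM and were near the lower edge by their percentage.

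The named risen transcripts of the cytoskeleton, chromatin and protein folding had sphere levels from 45.4 to 202 TPM and log2 rises from 2.43 to 3.94. The cytoplasmic actin gene *actb1* had the highest sphere level of the named transcripts, 202 TPM, and 1688 TPM in bud, a log2 rise of 3.06. The other named gene of the cytoskeleton list, the tubulin gene *tuba8l2*, had 6.93 and 187 TPM and fell just below the abundance band. Among chromatin proteins, *hmgn1b*, a nucleosome-binding protein, had 67.7 and 1051 TPM. The histone variant gene *h2ax1* had 74.2 and 403 TPM, the smallest log2 rise of the 15 at 2.43. It was the only one of the 3 named genes of the histone and chromatin list to reach 4-fold, since *anp32b* had 595 and 830 TPM and *hmgb1a* 43.2 and 124 TPM. The gene list did not hold *hmgn1b*. For *cct4*, a subunit of the chaperonin that folds actin and tubulin, the levels were 45.4 and 465 TPM, a log2 rise of 3.33. Its partner subunit *cct8* had 233 and 209 TPM, a log2 difference of -0.16. The cytosolic chaperone gene *hspa8* went from 839 to 2772 TPM, a log2 rise of 1.72 that was short of 4-fold. Other named chaperone and co-chaperone genes of the band, not matched to the list, were lower in bud. These were *dnajb1b* (412 and 88.3 TPM), *sugt1* (296 and 40.8 TPM) and *hyou1* (227 and 65.0 TPM), with log2 differences of -2.21, -2.83 and -1.79.

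**Figure D5:**
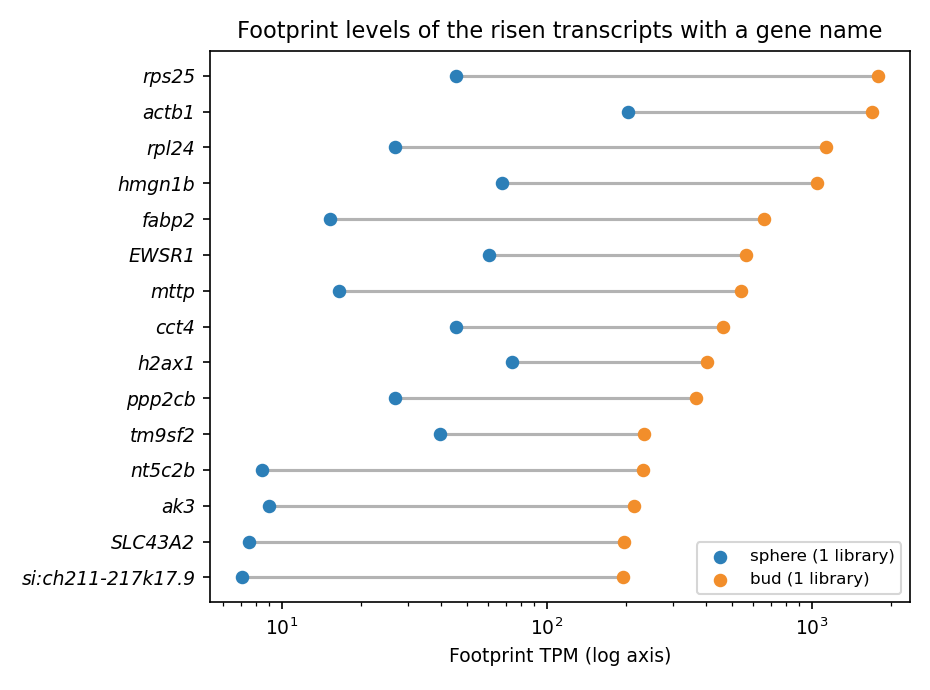
Footprint TPM on a logarithmic axis for the 15 risen transcripts with a gene name, with 1 value per stage and no error since each stage had 1 library. Sphere values (blue) span 7.07 to 202 TPM and bud values (orange) 195 to 1781 TPM.

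The remaining named transcripts served varied functions. *EWSR1*, an RNA-binding protein, had 60.8 and 563 TPM, and *ppp2cb*, a catalytic subunit of protein phosphatase 2A, had 26.8 and 367 TPM. For *tm9sf2*, a membrane protein of the endosome and Golgi, the levels were 39.7 and 233 TPM, and its sphere level was 17.1% of bud. The low class held 4 of the named transcripts. The nucleotidase gene *nt5c2b* had 8.44 and 231 TPM, the mitochondrial adenylate kinase gene *ak3* had 8.95 and 214 TPM, and the amino acid transporter gene *SLC43A2* had 7.52 and 196 TPM. The uncharacterised gene *si:ch211-217k17.9* had 7.07 and 195 TPM. All 4 had sphere levels between 3.64% and 4.19% of bud. Of 4 named genes of the respiratory chain and ATP synthase list, 3 were at least 4-fold higher, against the 20.9% of all named transcripts given above, and all 4 had means below 100 TPM. The largest of these rises was that of *atp5pf*, an ATP synthase subunit, from 2.93 to 97.3 TPM. Another respiratory chain subunit gene, *NDUFAB1*, was not matched to the list. It lay in the abundance band with 109 and 132 TPM, a log2 rise of 0.27. None of the 3 named genes of the RNA binding and splicing list, which did not hold *EWSR1*, reached 4-fold. Of 4 named genes of the cell adhesion and junctions list, none was at least 4-fold higher and 1 was at least 4-fold lower. The junction genes *cldng*, *oclna* and *cxadr* were named but not matched to the list. At least 4-fold lower were *cldng* (322 and 0.620 TPM) and *oclna* (429 and 30.6 TPM), but not *cxadr* (154 and 106 TPM). The single named gene of the glycolysis list reached 4-fold in neither direction.

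None of the 10 genes of the BMP and Nodal, FGF, Hedgehog and Wnt lists that could be named was among the risen transcripts, and for the 253 risen transcripts without a name this is unknown. Of the 10, all but *tdgf1* had a mean below 100 TPM, so the rule left them out whatever their rise. The level of *tdgf1* was 136 TPM in sphere and 79.7 TPM in bud. Not matched to the lists were *SMAD4*, a transducer of BMP and Nodal signals, and *ror2*, a Wnt receptor gene. Both lay in the band and were lower in bud, at 161 and 55.6 TPM and at 148 and 90.6 TPM. Over all named transcripts, 20.9% were at least 4-fold higher and 13.3% at least 4-fold lower in bud. Of 5 named genes of the BMP and Nodal list, 3 were at least 4-fold higher and 1 was at least 4-fold lower. The highest bud level among the 3 was that of *msx1b*, a homeobox gene, with 2.25 and 85.2 TPM, and the lower one was *smad2*, a transducer of Nodal signals, with 99.3 and 19.9 TPM. In the other 3 lists, 1 of 2 FGF genes (*spry2*, an inhibitor of FGF signalling, 1.38 and 17.9 TPM), the single Hedgehog gene (*hhip*, a Hedgehog-binding inhibitor, 1.38 and 11.8 TPM) and 1 of 2 Wnt genes (*wnt11*, a Wnt ligand listed at 0 in sphere and 8.77 TPM in bud) were at least 4-fold higher. The other FGF and Wnt genes, *spred2a* (0 and 2.49 TPM) and *lef1* (42.3 and 27.5 TPM), reached 4-fold in neither direction. Few markers of embryonic territories could be named, and none of these was a risen transcript. The neural plate gene *otx2a* had 5.40 TPM in sphere and 80.3 TPM in bud, and *pcolcea*, of the hatching gland list, had 0.423 and 2.91 TPM. Both had means below 100 TPM, too low for the rule. The neural gene *ZIC2*, not matched to the lists, was in the band with 87.0 and 303 TPM. Its log2 rise of 1.79 was short of 4-fold. Germ line and maternal markers had the higher value in sphere, at 213 and 14.9 TPM for *ddx4* and 81.9 and 2.68 TPM for *tdrd7a*, as did *ccna1* above. The third germ line gene, *nanos3*, had 10.7 and 8.47 TPM. These values go with the stage labels. No gene of the epidermis, notochord, paraxial mesoderm, endoderm, yolk syncytial layer, blood or muscle lists was both named and at a mean of 1 TPM or more, so the tissues in which the risen transcripts were translated were not examined. The yolk syncytial layer list did not hold *fabp2* or *mttp*.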

How the data were processed

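Footprint TPM were made by the authors. Adapters were removed with Cutadapt, ribosomal RNA reads with Bowtie, and unique alignments to the zebrafish genome (GRCz11) were kept with STAR 2.6.1c. The deposited TPM sum to 1000000 per library for 1 principal transcript per gene. The tool that made them from footprints was not given in the sources used here, although kallisto 0.44.0 is among the tools in the submitters' processing notes. TPM do not hold the sequencing depth. The deposited table of codon dwell times and tRNA proportions was not used.

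Log2 ratios used a pseudocount of 1 TPM, in Python 3.11.15 with pandas 2.3.3. Shares of changed transcripts were counted where the mean reached 1 TPM. The worth of 1 footprint came from 1193 transcripts that had less than 0.5 TPM in sphere but were not at 0 in either library, of which 36.8% had a ratio at a whole multiple of it (relative tolerance 0.0005, up to 20 steps). This search and the rule were checked on simulated data.

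The files list transcript identifiers alone. Supplementary sheets of the study give the same mRNA levels by transcript and by gene, and 1277 of 1406 transcripts were paired through equal values in both stages, without use of those values otherwise. In the order of the sheets, 3 breaks occurred among the pairs. Symbols came from a table of gene identifiers, and EWSR1, SLC43A2, NDUFAB1, SMAD4 and ZIC2 are spelled as listed there. The sheets were available in part, covering 17 of the risen transcripts. All 15 that could be named are named, along with the transcripts with the largest gain and the largest log2 rise, and some genes of the lists. A few related genes outside the lists were added after the values were seen. The transcripts and lists were chosen with earlier results of these data known, and the percentages of bud after the values were seen.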

Additional observations from a re-analysis of the deposited data

How the results depend on the processing

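With 1 library per stage, no library could be left out, and no paired analysis was possible because no replicates exist. Of 19 alternatives, 13 stayed within 1.5 times the reported value and 6 moved. The number of risen transcripts was 495 with a mean of at least 50 TPM and 146 with at least 200 TPM, since these widen or narrow the band. Removing the 100 top transcripts of each library (142 in all) before rescaling shifted the median log2 ratio of transcripts whose mean reached 1 TPM from -0.0067 to -0.19. It gave 361 risen transcripts, which included 203 of the 268, and a median rise of 3.97 for the original 268. By construction it enlarged their share of the pool, to 2.31% at sphere and 27.5% at bud. Below 5 TPM in sphere there were 4 risen transcripts and below 20 TPM 98, against 43 below 10 TPM. An alternative chosen after seeing the data took 2.69% of the bud level off each sphere level. It left 119 transcripts below 10 TPM and gave a median rise of 5.11 on the log2 scale. Thus the starting level depended on the boundary, and both it and the size of the rise changed when the lower edge was taken off. As that edge came in part from the risen transcripts, this last alternative is no independent check. Pseudocounts of 0.1 and 5 gave 270 and 260 risen transcripts. The single footprint is worth more TPM in sphere, which limits the lowest sphere values most.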
